A study of Mus musculus with 32 samples.

Results

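The metallothionein genes Mt1, Mt2 and Mt3 and the gene of their regulator, Mtf1, were followed across 32 expression arrays of sorted fetal germ cells. Members were the probes of the deposited table that the platform annotation assigns to exactly 1 gene symbol among these 4. Each gene had 1 such probe, so that 4 probes of 35556, or 4 genes of the 19938 named by a single-gene probe, were described. The genes were chosen by results of these data, above all the log2 signals of Mt1 in the oil controls, which were known to differ widely between the sexes. That difference is therefore given as a description and was not tested.

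Metallothioneins are small cysteine-rich proteins that bind zinc and copper and, on overload, cadmium. The transcription factor MTF1 senses free zinc through its zinc fingers and binds short metal response elements (MREs) in the promoters of Mt1 and Mt2, which are also induced by glucocorticoids and oxidative stress. Mt3 is best known from the brain, where it was described as a growth inhibitory factor of neurons, and does not respond to metals as Mt1 and Mt2 do. In mouse, Mt1, Mt2, Mt3 and the keratinocyte gene Mt4 lie next to each other in a cluster on chromosome 8, and Mtf1 lies on chromosome 4.

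The cells came from fetuses that carried the OG2 transgene, which expresses EGFP under the Oct4 promoter, and EGFP-positive cells were sorted by FACS at 17.5 dpc. The G1R groups (FVBxOG2 fetuses, exposed in utero) were oocytes (F) and prospermatogonia (M) after treatment of the dam by gavage with oil alone or with 1 of 3 compounds, namely the plastic monomer bisphenol A (BPA, daily dose 0.2 mg/kg), the phthalate plasticizer DEHP (750 mg/kg) or the fungicide vinclozolin (VZ, 100 mg/kg), from 12.5 dpc on. The G2R groups (OG2xFVB fetuses) were prospermatogonia of the next generation, never exposed themselves, from the DEHP, VZ and oil lines. Each of the 11 groups had 3 arrays, except the DEHP females with 2, which makes 11 female and 21 male arrays. All 3 compounds are endocrine disruptors (EDs): BPA binds estrogen receptors, DEHP acts through its metabolites, and VZ and its metabolites block the androgen receptor. No source states that the arrays of a group came from separate litters, so that the p-values measure the spread between these samples only.

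The sorted cells carried germ cell transcripts in both sexes, but not all at like levels. Of 6 germ cell markers, Ddx4, the germ cell RNA helicase gene, had log2 signals of 11.53 to 11.86 in oocytes and 11.52 to 11.83 in prospermatogonia, and Dazl and Mael were also at 12.30 or more in every array. Pou5f1, the gene whose promoter drives the EGFP used for sorting, had 7.12 to 8.76 in oocytes and 10.03 to 11.33 in prospermatogonia, in the same direction as Mt1 and Mt2. Dnd1 was lower in oocytes too (6.69 to 7.31, against 7.84 to 8.85), and Tdrd1 was higher (10.84 to 11.41, against 10.21 to 10.63). The oocyte factor gene Figla had 10.83 to 11.11 in oocytes and 7.15 to 7.66 in prospermatogonia, whereas Dnmt3l, a cofactor of de novo DNA methylation in male germ cells, had 5.80 to 6.22 in oocytes and 11.44 to 11.97 in prospermatogonia. Of 6 oocyte markers, 5 were higher in oocytes after each ED, and Zp3 was lower (6.37 to 7.13 in oocytes, against 7.90 to 9.26 in prospermatogonia). Of 5 prospermatogonia markers, 3 were lower in oocytes, and Nanos2 and Nanos3 overlapped between the sexes. Some markers of other gonadal cells differed too. The mean log2 signal of 6 endothelial marker genes was 6.43 to 6.72 in the oocyte arrays and 8.03 to 8.21 in the G1R prospermatogonia arrays, and 6 of the 6 were lower in oocytes after BPA and 5 of the 6 after DEHP and after VZ. The 8 Sertoli cell markers averaged 6.91 to 7.15 in oocyte arrays and 7.29 to 8.69 in G1R prospermatogonia arrays, with replicates 1 and 2 of the BPA males highest at 8.69 and 8.27. The 8 peritubular and interstitial markers averaged at most 7.32 in oocyte arrays and at least 7.65 in all prospermatogonia arrays. Of the 5 fetal Leydig cell markers, Cyp17a1 was lower in oocytes after BPA, DEHP and VZ (differences of -3.71, -2.42 and -2.29), as was Cyp11a1 (-2.41, -1.55 and -1.92). Star, Cyp11b1 and Hsd3b1 did not pass after any ED. Star differed by -0.67, -0.12 and -0.050, and Cyp11b1 by -0.050, -0.013 and -0.17. Hsd3b1 differed by -0.084, 0.73 and 0.49, with the higher means in oocytes after DEHP and VZ. In bulk RNA, more cells of a type and more RNA per cell cannot be told apart.

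The promoters of Mt1 and Mt2 are shown because the letters of metal response elements are dense there, and that of Mt3 as the neighbour with fewer of them. They are RefSeq windows on GRCm38.p6, from 250 bases before the annotated transcript start to 50 bases from the start on, all on the plus strand. Matches to the MRE core TGCACNC or TGCGCNC on either strand are in capitals, and the rest is in lower case.
Mt1, chr8:94178839-94179138: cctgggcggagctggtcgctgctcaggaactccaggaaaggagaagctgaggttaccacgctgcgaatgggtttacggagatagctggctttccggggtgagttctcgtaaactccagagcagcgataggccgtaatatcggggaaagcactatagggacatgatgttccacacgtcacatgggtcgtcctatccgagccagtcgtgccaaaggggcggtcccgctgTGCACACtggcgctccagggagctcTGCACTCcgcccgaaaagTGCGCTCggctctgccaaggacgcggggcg
Mt2, chr8:94172368-94172667: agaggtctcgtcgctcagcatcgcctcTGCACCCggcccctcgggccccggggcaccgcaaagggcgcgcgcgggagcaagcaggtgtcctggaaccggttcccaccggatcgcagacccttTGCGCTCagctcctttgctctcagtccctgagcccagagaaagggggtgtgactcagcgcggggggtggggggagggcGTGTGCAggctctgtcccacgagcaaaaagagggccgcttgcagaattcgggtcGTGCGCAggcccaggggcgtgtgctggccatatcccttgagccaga
Mt3, chr8:94152357-94152656: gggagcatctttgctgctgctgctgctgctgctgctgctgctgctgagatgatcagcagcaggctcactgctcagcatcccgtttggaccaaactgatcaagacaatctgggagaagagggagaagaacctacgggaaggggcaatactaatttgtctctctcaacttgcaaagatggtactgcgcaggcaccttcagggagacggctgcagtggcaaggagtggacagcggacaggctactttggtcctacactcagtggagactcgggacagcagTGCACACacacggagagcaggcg
The Mt1 window held 3 matches, beginning at positions -23, 2 and 20 from the annotated start, which is counted as 0. The Mt2 window held 4, at -223 and -128 on the plus strand and at -50 and 4 on the minus strand. The Mt3 window held 1, at 27, and the Mtf1 window (chr4:124802299-124802598) held 0. Of 32851 RefSeq windows of this length, 25.7% held at least 1 match, 1.97% at least 3 and 0.517% at least 4. A match of these letters is a description and shows no binding of MTF1.

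Mt1 gave high signals in prospermatogonia and low ones in oocytes, whatever the dam had received. The lowest, median and highest log2 signals of Mt1 were 7.77, 8.05 and 8.61 in the 11 oocyte arrays and 11.92, 12.18 and 12.39 in the 21 prospermatogonia arrays. After BPA, Mt1 had 7.77, 7.92 and 8.14 in oocytes and 12.18, 12.13 and 12.35 in prospermatogonia. After DEHP it had 8.61 and 7.99 in oocytes, and 12.32, 12.12 and 12.30 in prospermatogonia. After VZ it had 8.14, 8.05 and 8.31 in oocytes, against 12.23, 12.30 and 12.38 in prospermatogonia. Every oocyte array was more than 3 log2 units below every prospermatogonia array, and the sexes did not overlap under any treatment. An absence of overlap with the lower signals in oocytes occurred for 27.2% of all probes after BPA, 29.5% after DEHP and 27.4% after VZ.

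**Figure D1:**
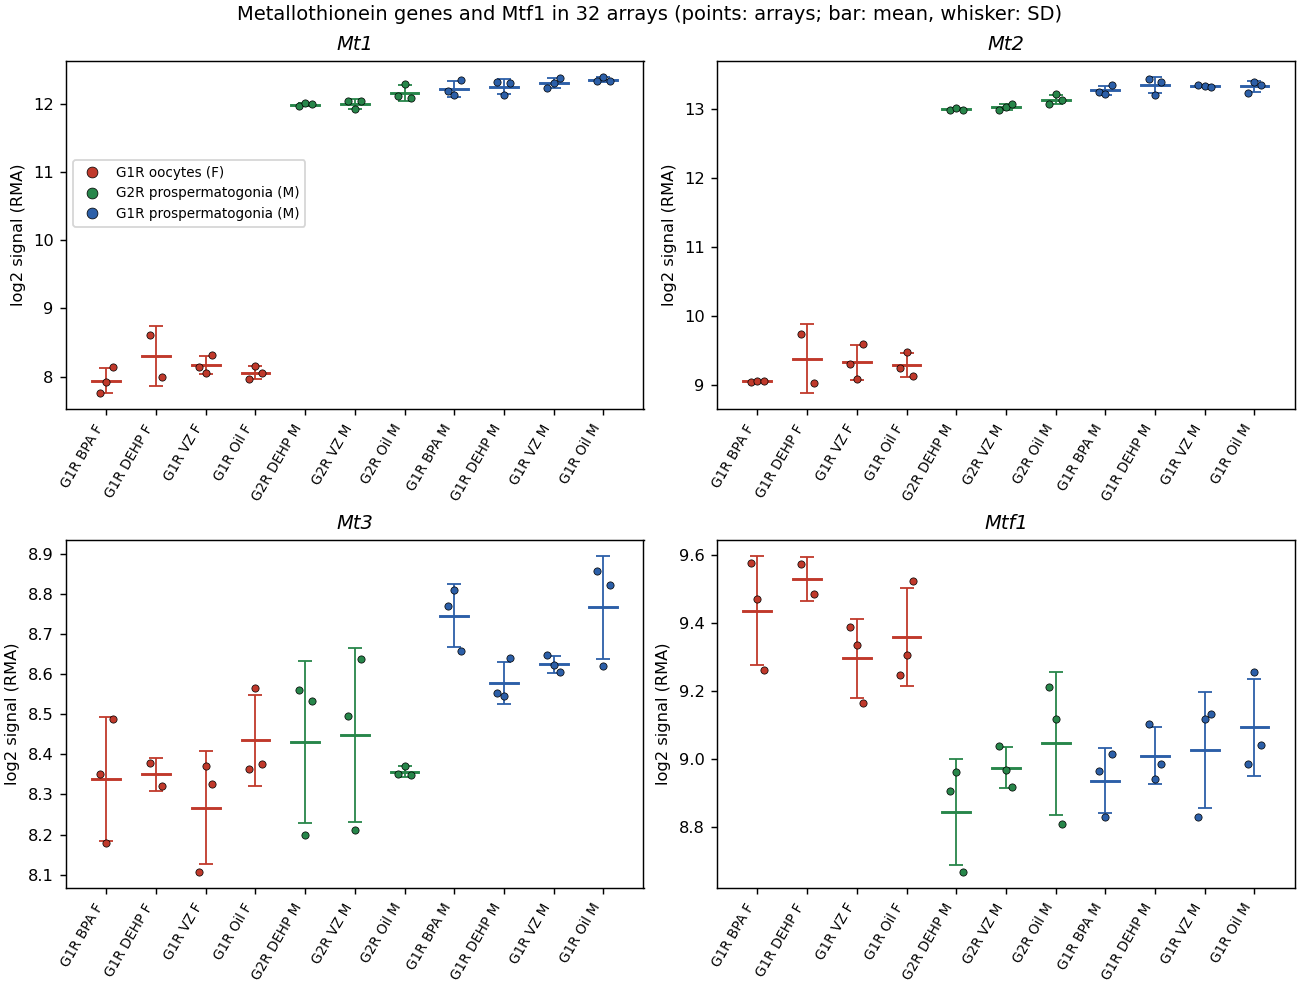
Log2 signal of Mt1, Mt2, Mt3 and Mtf1 (y axis, own scale per gene) in each of 32 arrays, by group (x axis: G1R oocytes in red, G2R prospermatogonia in green, G1R prospermatogonia in blue). Points are arrays, bars are group means and whiskers are SDs. For Mt1 and Mt2 the oocyte arrays lie at 7.77 to 8.61 and 9.03 to 9.74, and all prospermatogonia arrays lie at 11.92 or more and 12.98 or more.

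The difference of Mt1, female minus male, was -4.28 after BPA (SE 0.12, 95% interval -4.52 to -4.04), -3.95 after DEHP (SE 0.13, interval -4.21 to -3.68) and -4.14 after VZ (SE 0.12, interval -4.38 to -3.90). On the linear scale, the signal of Mt1 was 19.4-fold, 15.4-fold and 17.6-fold lower in oocytes. In limma, the adjusted p was 7.79e-20 after BPA, 4.05e-18 after DEHP and 1.09e-19 after VZ, with Benjamini-Hochberg adjustment over all 35556 probes. Mt1 was chosen with its wide sex difference in oil known, which made a like difference after each ED likely beforehand. The oil arrays also entered the spread estimated for each probe. The p-values of the members between the sexes are therefore no independent support for a sex difference. A sex difference alone did not set Mt1 apart: at the same threshold, an adjusted p under 0.05, 55.8% of all probes differed between the sexes after BPA, 52.1% after DEHP and 55.4% after VZ, and 25.1%, 23.6% and 24.5% were lower in oocytes. In the oil controls, described without a test, Mt1 had 7.97, 8.16 and 8.05 in oocytes and 12.34, 12.39 and 12.33 in prospermatogonia, a difference of -4.29.

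Mt2, which encodes the other widely expressed metallothionein, followed Mt1 closely. Its log2 signals after BPA were 9.05, 9.06 and 9.06 in oocytes, against 13.24, 13.22 and 13.34 in prospermatogonia. After DEHP, Mt2 had 9.74 and 9.03 in oocytes and 13.43, 13.20 and 13.38 in prospermatogonia. After VZ, it had 9.30, 9.09 and 9.60 in oocytes and 13.34, 13.33 and 13.32 in prospermatogonia. As for Mt1, no oocyte array came near a prospermatogonia array. The difference was -4.21 after BPA (SE 0.13, adjusted p = 4.17e-19 in limma), -3.95 after DEHP (SE 0.14, adjusted p = 1.82e-17 in limma) and -4.00 after VZ (SE 0.13, adjusted p = 9.96e-19 in limma), or 18.5-fold, 15.5-fold and 16.0-fold lower in oocytes. In oil, Mt2 had 9.26, 9.49 and 9.14 in oocytes and 13.23, 13.39 and 13.35 in prospermatogonia, a difference of -4.03 that was not tested. Mt1 and Mt2 are close paralogs, and whether a probe of either also binds RNA of the other was not tested.

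The markers of other cells were set beside Mt1 and Mt2. In the G1R BPA males, replicates 1 and 2 had the highest peritubular and interstitial marker means of the G1R males, 8.37 and 9.07, and replicate 3 had 7.69. Mt1 was 12.18 and 12.13 in replicates 1 and 2 and 12.35 in replicate 3. Without these 2 arrays and replicate 2 of the G2R DEHP males, which had the highest Leydig cell marker mean at 8.60, the sex difference after BPA was -4.41 for Mt1 and -4.28 for Mt2. Only replicate 3 of the BPA males was then left, so these values rest on that male array, and the G2R array does not enter them. The endothelial and the peritubular and interstitial marker means, like the signals of Mt1 and Mt2, were lower in every oocyte array than in every prospermatogonia array. The macrophage and blood marker mean was too, by a narrow gap. Pou5f1 was lower in oocytes as well, as were Cyp17a1 and Cyp11a1 of the 5 fetal Leydig cell markers. The part of these markers in the result was not tested.

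Mt3 was lower in oocytes by a much smaller amount. Its log2 signals after BPA were 8.35, 8.18 and 8.49 in oocytes and 8.77, 8.81 and 8.66 in prospermatogonia. After DEHP they were 8.38 and 8.32 in oocytes and 8.55, 8.54 and 8.64 in prospermatogonia. After VZ they were 8.11, 8.37 and 8.33 in oocytes and 8.65, 8.62 and 8.61 in prospermatogonia. The sexes did not overlap under any ED, but the gaps were small. The same absence of overlap, with the lower signals in oocytes, occurred for 27.2%, 29.5% and 27.4% of all probes after BPA, DEHP and VZ. The difference passed the limma test after BPA (-0.41, SE 0.11, adjusted p = 0.00204) and VZ (-0.36, SE 0.11, adjusted p = 0.006), but not after DEHP (-0.23, 95% interval -0.47 to 0.017, adjusted p = 0.112 in limma). Of all probes, 25.1%, 23.6% and 24.5% passed and were lower in oocytes after BPA, DEHP and VZ. In oil, Mt3 had 8.36, 8.57 and 8.38 in oocytes and 8.86, 8.62 and 8.82 in prospermatogonia. After cyclic loess normalization the DEHP difference also passed (-0.40, adjusted p = 0.0121 in limma). After centring each array on its median the VZ difference did not (-0.21, adjusted p = 0.0724 in limma). Without the 3 arrays high in somatic markers, which leaves only replicate 3 of the BPA males, the BPA difference was -0.32.

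Mtf1, the zinc sensor, had its higher signals in oocytes, opposite to the metallothionein genes. After BPA, Mtf1 had 9.58, 9.47 and 9.26 in oocytes and 8.96, 8.83 and 9.02 in prospermatogonia. After DEHP it had 9.57 and 9.48 in oocytes, against 9.10, 8.94 and 8.99 in prospermatogonia. After VZ it had 9.39, 9.33 and 9.17 in oocytes and 8.83, 9.12 and 9.13 in prospermatogonia. Under each ED the oocyte arrays lay above the prospermatogonia arrays, as 33.8%, 38.7% and 36.7% of all probes did after BPA, DEHP and VZ. In oil, described without a test, Mtf1 had 9.25, 9.31 and 9.52 in oocytes and 8.98, 9.25 and 9.04 in prospermatogonia, and the sexes overlapped.

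The difference of Mtf1 was 0.50 after BPA (SE 0.11, adjusted p = 0.000519 in limma), 0.52 after DEHP (SE 0.13, adjusted p = 0.00118 in limma) and 0.27 after VZ (SE 0.11, adjusted p = 0.0468 in limma). Of all probes, 30.6%, 28.5% and 31% passed and were higher in oocytes after BPA, DEHP and VZ. Cyclic loess normalization kept the direction but ended the call after BPA (0.22, adjusted p = 0.0662 in limma) and after VZ (0.030, adjusted p = 0.823 in limma). The VZ difference was also lost without replicate 1 of the VZ males (0.17, adjusted p = 0.248 in limma), or without replicate 1 or 2 of the VZ females (adjusted p = 0.151 and 0.11 in limma).

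**Figure D2:**
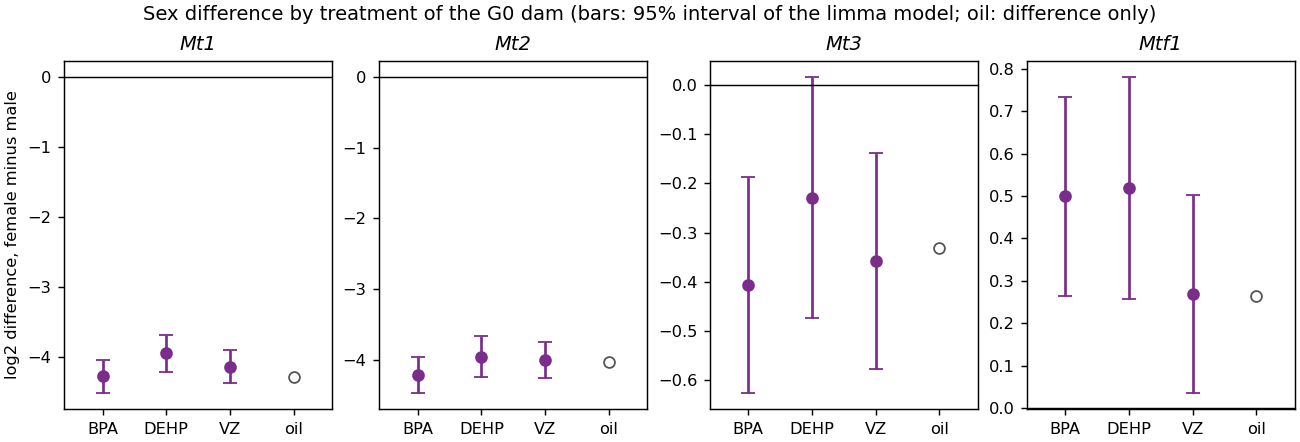
Log2 difference, oocytes minus prospermatogonia (y axis, own scale per gene), for Mt1, Mt2, Mt3 and Mtf1 after BPA, DEHP, VZ and oil (x axis). Bars are 95% intervals of the limma model, and the open oil points have no interval because that difference was not tested. Mt1 and Mt2 lie between -4.29 and -3.95, Mt3 is below 0 and Mtf1 above 0 under each treatment.

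Over the 11 groups, the order of the Mt1 means was that of the sexes and, within males, of the generations. From the highest, the Mt1 means were 12.35 ± 0.035 (SD, n = 3) in G1R oil males, 12.30 in VZ, 12.25 in DEHP and 12.22 in BPA males, followed by 12.16, 12.00 and 11.99 in the G2R oil, VZ and DEHP males, and by 8.30, 8.17, 8.06 and 7.94 in the DEHP, VZ, oil and BPA females. Neighbours in this order overlapped in their arrays, except the G2R oil over the G2R VZ males and the G2R DEHP males over the DEHP females. For Mt2, the G1R male means were 13.34 in DEHP, 13.33 in VZ, 13.32 in oil and 13.27 in BPA males, the G2R means were 13.13 in oil, 13.02 in VZ and 12.99 in DEHP males, and the female means were 9.38 in DEHP, 9.33 in VZ, 9.29 in oil and 9.06 in BPA. The Mt2 neighbours that did not overlap were the G1R BPA and G2R oil males, the G2R oil and G2R VZ males, the G2R DEHP males and DEHP females, and the oil and BPA females. The Mt3 means spanned 8.27 in VZ females to 8.77 in G1R oil males, and the Mtf1 means 8.85 in G2R DEHP males to 9.53 in DEHP females. Neighbouring groups overlapped for both genes, except that the G1R BPA males lay above the G1R VZ males for Mt3.

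Mt1 and Mt2 also moved together among arrays of the same group. With each group mean taken off, their deviations correlated with r = 0.81 (rho = 0.72) over 32 arrays, and with r = 0.63 over the 30 arrays left without the DEHP females. Over the 11 group means, r was 1.00, which the sexes set. Deviations of Mt1 had r = 0.19 with those of Mt3 and r = 0.077 with those of Mtf1. Deviations of Mt3 and Mtf1 had r = -0.42. These correlations describe arrays that share a normalization, and no p is given.

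By the same measures and with all arrays, Mt2 was the probe most like Mt1 of all single-gene probes, both over group means and within groups, and Mt1 the most like Mt2. The next over group means were Ap2a1, Chst1, Ptov1 and Traf7 for Mt1, and Cln3, Ap2a1, Ptov1 and Pld3 for Mt2, with r of 1.00 in each case. Of these, Cln3, a lysosomal membrane protein gene, averaged 9.59 in females and 12.63 in males, and Ap2a1, which encodes an adaptin of clathrin coats, averaged 10.11 in females and 11.15 in males. Within groups, the next after Mt2 for Mt1 were Taar8c (r = 0.80), Pld2 (0.70), Pcp4l1 (0.70) and Pdlim4 (0.68), and the next after Mt1 for Mt2 were Pmp22 (0.72), R74862 (0.72), Olfr107 (0.68) and Sval3 (0.67). These ranks lean on the DEHP females. Without those 2 arrays, r was taken again for these probes only, and the other probes were not ranked. With Mt1 it was 0.63 for Mt2, 0.75 for Pld2, 0.61 for Pdlim4, 0.57 for Taar8c and 0.48 for Pcp4l1, so that Pld2 exceeded Mt2. With Mt2 it was 0.63 for Mt1, 0.66 for R74862, 0.46 for Pmp22, 0.45 for Sval3 and 0.42 for Olfr107, so that R74862 exceeded Mt1. Taar8c averaged 3.56 in females and 3.33 in males, Olfr107 4.76 and 4.07, and Sval3 4.26 and 4.01, near the lowest value of the table, 2.59.

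**Figure D3:**
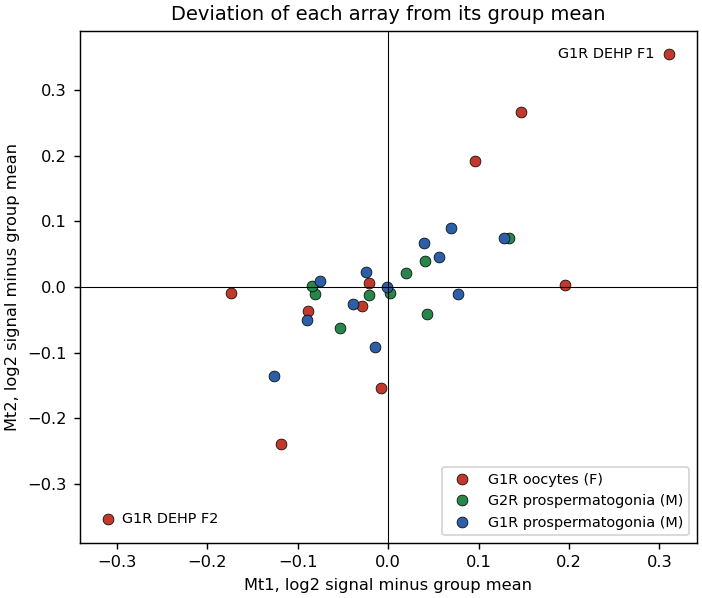
Log2 signal minus the group mean of Mt1 (x axis) and Mt2 (y axis) in 32 arrays (oocytes red, G2R prospermatogonia green, G1R prospermatogonia blue). The deviations had r = 0.81 over all arrays and r = 0.63 without the 2 DEHP female arrays at the upper right and lower left.

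Each ED group was compared next with oil of the same sex and generation, in the exposed G1R cells and in the G2R prospermatogonia, which were not exposed themselves. No member passed the limma test in any of the 8 comparisons, or at an unadjusted p under 0.05, and the share of all probes that passed was 0.00562% in the DEHP and VZ comparisons of G1R males and 0% in the other 6. The 32 differences of the members ran from -0.24 to 0.24, their 95% intervals from -0.50 to 0.51 at the widest, and the lowest adjusted p in limma was 0.427. All 32 intervals thus lay within -0.50 to 0.51, far short of the difference between the sexes for Mt1 and Mt2. Changes within these intervals are not excluded. The G1R oil arrays, whose Mt1 signals guided the choice of the genes, were the reference in the G1R comparisons. They also entered the differences of ED effects and the oil generation comparison below. How far the choice shifted these values was not tested.

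In oocytes, the largest differences were those of Mt1 after DEHP and of Mt2 after BPA. Mt1 after DEHP averaged 8.30 ± 0.44 (SD, n = 2) in DEHP oocytes and 8.06 ± 0.092 (SD, n = 3) in oil oocytes, a difference of 0.24 (95% interval -0.026 to 0.51, adjusted p = 0.838 in limma). It rested on replicate 1 of the DEHP females, which exceeded replicate 2 by 0.62 for Mt1 and 0.71 for Mt2. Only 4.02% and 2.76% of all probes differed more between these 2 arrays. Without replicate 1, DEHP minus oil was -0.070 for Mt1 and -0.26 for Mt2. The Sertoli cell marker mean of replicate 1 exceeded that of replicate 2 by 0.23 and the granulosa cell marker mean by 0.36, and their part in the difference was not tested. Mt2 after BPA lay below oil in each array (-0.24, interval -0.50 to 0.022, adjusted p = 1.00 in limma), as 3.84% of all probes did. After VZ, the differences in oocytes were 0.11 for Mt1, 0.037 for Mt2, -0.17 for Mt3 and -0.062 for Mtf1, with overlapping arrays.

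In G1R prospermatogonia, Mt1 minus oil was -0.13 after BPA (95% interval -0.37 to 0.10), -0.11 after DEHP (-0.34 to 0.13) and -0.049 after VZ (-0.29 to 0.19). The differences of Mt2 were smaller, at -0.058, 0.016 and 0.0065. The 3 DEHP arrays of Mt1 lay below the 3 oil arrays, as 10.9% of all probes did. Mt3 had its largest difference after DEHP, -0.19 (interval -0.41 to 0.032, adjusted p = 0.427 in limma), and Mtf1 after BPA, -0.16 (interval -0.39 to 0.077, adjusted p = 0.859 in limma).

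In G2R prospermatogonia, all arrays of Mt1 and Mt2 in the DEHP and VZ lines lay below those of the oil line. Mt1 had 11.96, 12.01 and 11.99 in the DEHP line and 12.04, 11.92 and 12.04 in the VZ line, against 12.11, 12.30 and 12.08 in the oil line. Mt2 had 12.98, 13.01 and 12.98 in the DEHP line and 12.98, 13.02 and 13.06 in the VZ line, against 13.07, 13.20 and 13.12 in the oil line. An absence of overlap in this direction occurred for 4.67% of all probes in the DEHP line and 5.33% in the VZ line. The differences did not pass the limma test: for Mt1 they were -0.18 (interval -0.41 to 0.063, adjusted p = 0.806) in DEHP and -0.16 (interval -0.40 to 0.077, adjusted p = 0.938) in VZ, and for Mt2 -0.14 (interval -0.40 to 0.12) and -0.11 (interval -0.37 to 0.15). The 2 lines share the oil arrays. Mt3 had differences of 0.073 and 0.092, and Mtf1 of -0.20 and -0.071, with overlapping arrays.

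Whether ED minus oil differed between females and males, or between G2R and G1R males, was tested as a difference of the ED effects. None of the 20 values for the members passed the limma test or had an unadjusted p under 0.05, and the same test called 0% of all probes. The largest was the effect of DEHP on Mt1, females less males, at 0.35 (95% interval -0.012 to 0.70, adjusted p = 0.68 in limma). It was 0.036 without replicate 1 of the DEHP females. The most negative was the effect of BPA on Mt2, females less males, at -0.18 (interval -0.55 to 0.19).

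Between the generations of males, Mt3 was lower in G2R than in G1R prospermatogonia of the oil line. Mt3 had 8.35, 8.37 and 8.35 in G2R oil males and 8.86, 8.62 and 8.82 in G1R oil males. This difference of -0.41 (SE 0.11, adjusted p = 0.0175 in limma) passed the test, as 10.3% of all probes did, and 5.3% of all probes were lower in G2R. It was lost in a fit of the 6 arrays compared (adjusted p = 0.065 in limma) and without replicate 1 or 3 of the G1R oil males or replicate 1 of the G2R oil males (adjusted p = 0.0826, 0.0669 and 0.0527 in limma). In the DEHP and VZ lines, where 14.5% and 7.77% of all probes passed, no member did, and Mt3 differed by -0.15 (interval -0.37 to 0.071) and -0.18 (interval -0.40 to 0.043).

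Mt1 and Mt2 had lower signals in every G2R array than in every G1R array of the same treatment. Mt1 minus its G1R value was -0.26 in DEHP males (adjusted p = 0.134 in limma), -0.30 in VZ males (adjusted p = 0.111 in limma) and -0.19 in oil males (adjusted p = 0.297 in limma). For Mt2 the differences were -0.35 (adjusted p = 0.0642 in limma), -0.31 (adjusted p = 0.138 in limma) and -0.19 (adjusted p = 0.337 in limma). An absence of overlap in this direction occurred for 15.2%, 14.7% and 18.3% of all probes in DEHP, VZ and oil males. Mt2 in DEHP males passed in limma when dim probes were left out (adjusted p = 0.047) or when only single-gene probes were tested (adjusted p = 0.0453). Mtf1 differed by -0.16, -0.052 and -0.047, with overlapping arrays.

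The mean of the 3 generation differences was added after these values had been seen. It was -0.25 for Mt1 (95% interval -0.39 to -0.11, adjusted p = 0.00567 in limma), -0.28 for Mt2 (interval -0.43 to -0.13, adjusted p = 0.00441 in limma), -0.24 for Mt3 (interval -0.37 to -0.12, adjusted p = 0.00384 in limma) and -0.088 for Mtf1 (interval -0.22 to 0.047, adjusted p = 0.33 in limma). By the same measure 30.8% of all probes passed, and 16.2% of all probes were lower in G2R. The generations also differed in the direction of the cross, FVBxOG2 in G1R and OG2xFVB in G2R, and in the array run, and these cannot be told apart.

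**Figure D4:**
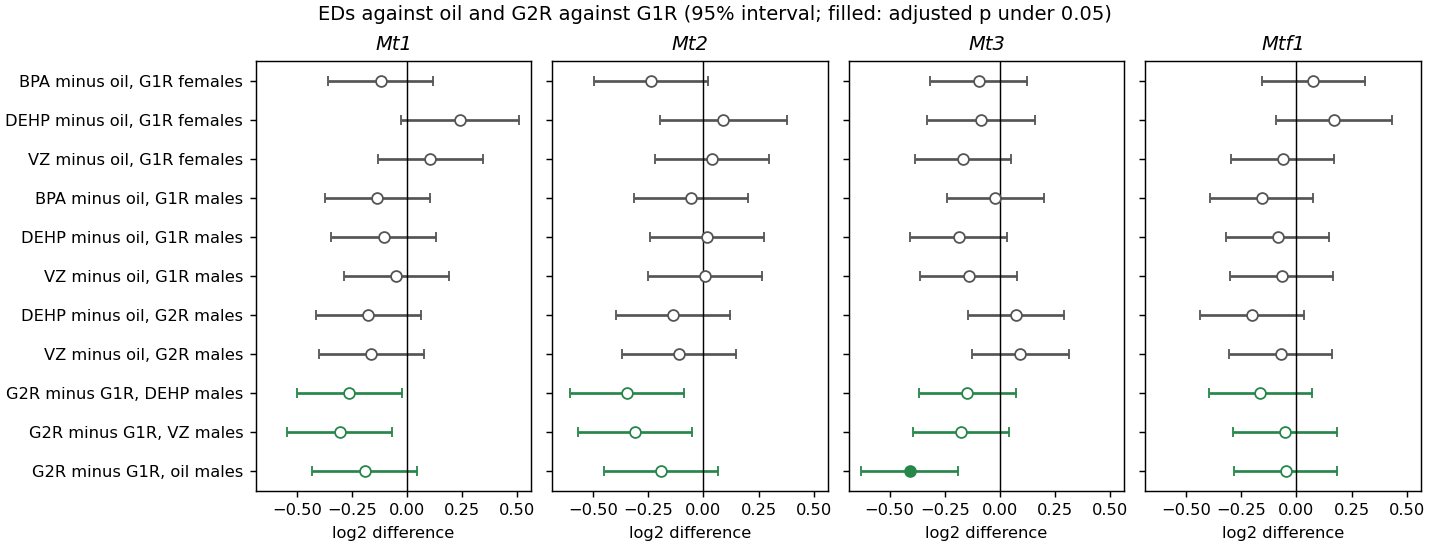
Log2 differences with 95% intervals (x axis) for Mt1, Mt2, Mt3 and Mtf1 in 8 comparisons of an ED with oil (grey) and 3 of G2R with G1R males (green), each named on the y axis. Filled points had an adjusted p under 0.05, which only Mt3 reached, in the oil males (-0.41).

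Other genes of zinc handling were divided between the sexes. Of 10 zinc exporter genes (Slc30a family, which move zinc out of the cytosol), 7 were higher and 2 lower in oocytes after BPA, and 6 and 2 after DEHP and after VZ, with a median difference of 0.41, 0.60 and 0.53, against 0.082, 0.092 and 0.11 over all probes. Over all probes 30.6%, 28.5% and 31% were higher in oocytes after BPA, DEHP and VZ, and 25.1%, 23.6% and 24.5% were lower. Slc30a4, the exporter mutated in the lethal milk mouse, was higher in oocytes by 1.94, 1.51 and 1.59 after BPA, DEHP and VZ (adjusted p of 6.49e-13 or less in limma). Slc30a5 and Slc30a9 were also higher, by 1.26 and 0.93 after BPA. Slc30a2, which loads zinc into vesicles, was lower by 1.19, 1.01 and 1.19.

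Of 14 zinc importer genes (Slc39a family), 6 were higher and 6 lower in oocytes after BPA, 5 and 6 after DEHP, and 6 and 5 after VZ. Over all probes the shares were 30.6%, 28.5% and 31% higher, and 25.1%, 23.6% and 24.5% lower. Slc39a4, the importer that is defective in the human zinc deficiency disease acrodermatitis enteropathica, had the difference nearest in size to those of Mt1 and Mt2 among them. Its signal averaged 6.97 in oocytes and 10.10 in prospermatogonia after BPA, and the difference was -3.13 (SE 0.12, adjusted p = 8.46e-17 in limma), with -3.17 after DEHP and -3.18 after VZ. Slc39a8, which carries zinc, manganese and cadmium, was lower in oocytes by 1.30, 1.27 and 1.59. Slc39a13 was higher by 1.05, 1.30 and 1.33, and Slc39a1 by 0.89, 1.07 and 1.01 on its probe 10470948.

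**Figure D5:**
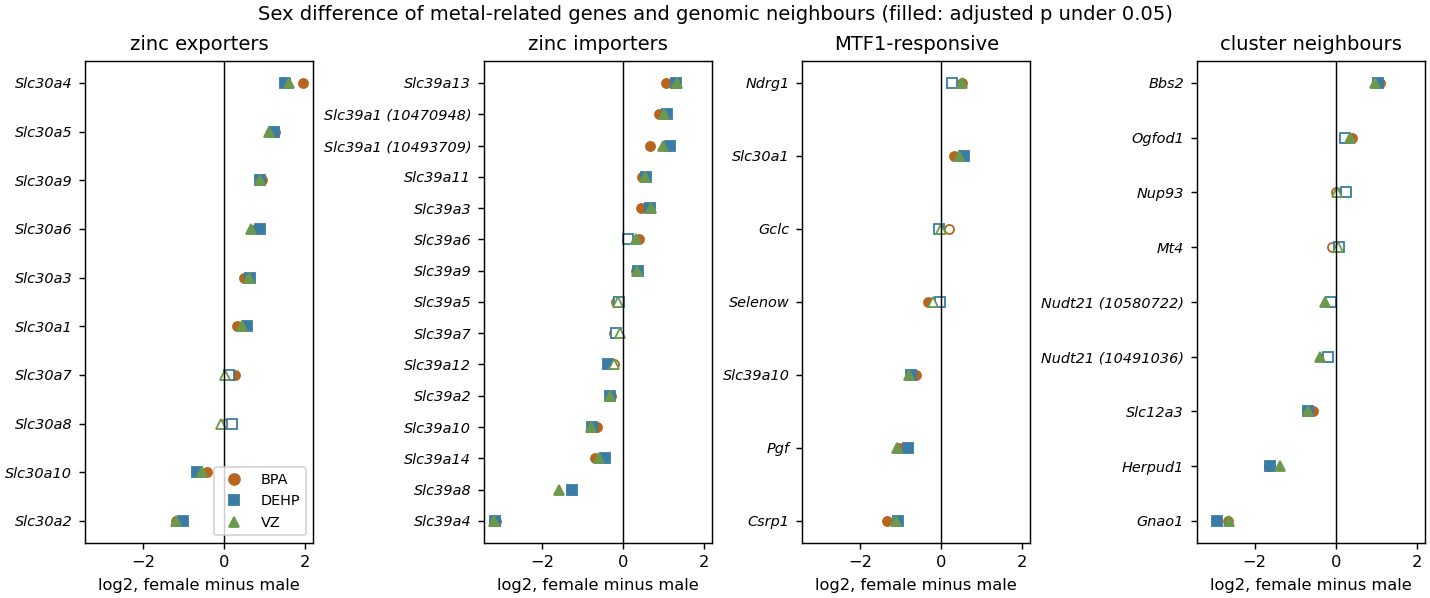
Log2 difference, oocytes minus prospermatogonia (x axis), of the genes named on the y axis in 4 lists, after BPA (brown circles), DEHP (blue squares) and VZ (green triangles). Filled symbols had an adjusted p under 0.05. Slc39a4 (-3.18 to -3.13) and Gnao1 (-2.92 to -2.63) lie farthest below 0, and Slc30a4 (1.51 to 1.94) farthest above.

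Of 7 genes reported to respond to MTF1, 2 were higher and 4 lower in oocytes after BPA, 1 and 3 after DEHP, and 2 and 3 after VZ. Of all probes, 30.6%, 28.5% and 31% were higher and 25.1%, 23.6% and 24.5% lower, and with so few genes the counts do not set the list apart. Slc30a1, the plasma membrane zinc exporter that MTF1 activates in mouse, was higher in oocytes by 0.32, 0.56 and 0.44 after BPA, DEHP and VZ (adjusted p of 0.00507 or less in limma), opposite to Mt1 and Mt2. Slc39a10, an importer that MTF1 represses, was lower by 0.63, 0.76 and 0.79. Csrp1, a LIM domain protein gene, was lower by 1.36, 1.07 and 1.13, and Pgf, which encodes placental growth factor, by 1.06, 0.82 and 1.10. The RefSeq window of Slc30a1 held 2 MRE matches, and 7.11% of all windows held at least 2. Those of Slc39a10 held 0.

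Of 8 genes that neighbour the metallothionein cluster on chromosome 8, 2 were higher and 4 lower in oocytes after BPA, 1 and 3 after DEHP, and 2 and 4 after VZ. Set beside the shares of all probes just given, these counts do not set the neighbours apart either. Gnao1, which encodes a G protein alpha subunit and lies on the Mt3 side, averaged 7.77 in oocytes and 10.44 in prospermatogonia after BPA (difference -2.67, SE 0.10, adjusted p = 1.74e-17 in limma), and differed by -2.92 and -2.63 after DEHP and VZ. Herpud1, a gene of the endoplasmic reticulum stress response, was lower by 1.64, 1.62 and 1.37, and Slc12a3 by 0.57, 0.68 and 0.69. Bbs2, a ciliary gene, was higher by 1.10, 1.05 and 0.96. Mt4, the fourth gene of the cluster, had differences of -0.087, 0.084 and 0.061 and did not pass.

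In G2R against G1R oil males, where Mt3 had passed, 8 of the 55 genes of the zinc, MTF1, copper, glucocorticoid and neighbour lists passed as well, or 14.5%, against 10.3% of all probes, which does not set the lists apart. Selenow, a selenoprotein gene reported to respond to MTF1, was lower in G2R by 0.82 (adjusted p = 0.00101 in limma), Slc39a5 by 0.43 and the copper chaperone gene Atox1 by 0.37. Slc30a5 was higher by 0.55 (adjusted p = 0.00601 in limma), Slc39a10 by 0.46, the copper exporter gene Atp7a by 0.44, Bbs2 by 0.37 and Slc30a4 by 0.26. In the ED against oil comparisons, none of the genes of these lists passed.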

How the data were processed

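Mouse Gene 1.0 ST arrays were hybridized with RNA of 32 samples of EGFP-positive cells. The authors normalized the arrays by robust multichip average (RMA), and the deposited table holds their log2 values for 35556 probes. Array medians ran from 7.29 to 7.50, and the table gives no detection calls. The number of arrays limits the precision. Groups were taken from the sample titles.

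Contrasts came from a cell-means model in limma 3.58.1 (R 4.3.3) over every probe and all 11 groups. It had 21 residual degrees of freedom, to which variance moderation added 3.67. Adjustment was by Benjamini-Hochberg over the whole table, with a threshold of 0.05. Genes were named from single-gene probes of the platform annotation. Motifs were searched with Python in RefSeq promoter windows (GRCm38.p6).

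The named genes were the 4 members, up to 4 genes of each list with the smallest p over the sex contrasts after an ED (the largest of the 3), list genes that passed where a member passed in another comparison, and the 5 probes most like Mt1 and Mt2. The members and lists were chosen with earlier results of these data known. Cetp and Sco2 of the lists and 3 marker genes had no single-gene probe here.

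Alternatives were unmoderated least squares as in the authors' ANOVA, only the arrays compared, leaving out dim probes (a mean log2 signal of 6.70 or less, which keeps 23704), testing the 21789 single-gene probes alone, cyclic loess, median centring, a block for the replicate number, array quality weights, and leaving out arrays.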

Additional observations from a re-analysis of the deposited data

How the results depend on the processing

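Of 12 sex comparisons of the members after an ED, 11 passed the limma test, and 10 to 11 did with single arrays left out. Of all probes, 55.8%, 52.1% and 55.4% passed after BPA, DEHP and VZ. Of 12 generation comparisons, 1 passed, and of all probes 10.3%, 14.5% and 7.77% did in oil, DEHP and VZ males. None did when only the arrays compared were fitted (0 calls), 2 did without dim probes and 2 with only single-gene probes, and with single arrays left out the count ran from 0 to 1. The count of members called was 0 of 32 for ED against oil and 0 of 20 for the difference of ED effects under every alternative run. For Mt1 and Mt2 after an ED, the sex difference ran from -4.44 to -3.60 over all alternatives. Median centring moved the median of all probes in the sex comparisons by 0.14 to 0.17, and cyclic loess by -0.095 to -0.054. Fitting only the arrays compared left 586 probes called in oil males, against 3664, 957 in DEHP males, against 5146, and 397 in VZ males, against 2762, while array weights gave 5520 in oil males.

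The differences that changed sign were all from comparisons that did not pass. For ED against oil, with single arrays left out, Mt1 and Mt2 in DEHP females ran from -0.070 to 0.55 and from -0.26 to 0.44, Mt2 and Mtf1 in VZ females from -0.096 to 0.16 and from -0.12 to 0.020, Mt3 in BPA males from -0.094 to 0.025, Mt2 in DEHP males from -0.030 to 0.083, Mt2 and Mtf1 in VZ males from -0.039 to 0.040 and from -0.12 to 0.031, and Mt3 and Mtf1 in G2R VZ males from -0.0033 to 0.21 and from -0.19 to 0.011. For G2R minus G1R, Mtf1 ran from -0.13 to 0.070 in oil males and from -0.15 to 0.00103 in VZ males. Mt2 in VZ males was -0.044 with cyclic loess. Mt2 in BPA males was 0.018 without the 3 arrays high in somatic markers. That setting was chosen after seeing the data and leaves only replicate 3 of the BPA males. The causes were not tested.

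The replicate numbers recur in every group, but deviations of same-numbered arrays correlated with a median r of -0.013 (-0.35 to 0.27), so that the numbers were not taken as pairs. With the replicate number as a block, 3361 probes were called in G2R against G1R oil males, against 3664 without it, and the counts of members called were 11, 0, 1 and 0 in the 4 kinds of comparison.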

Other observations

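Metallothioneins bind copper, and Mt1 and Mt2 are induced by glucocorticoids. Of 10 copper handling genes, 9 were higher and 1 was lower in oocytes after each of BPA, DEHP and VZ, with a median difference of 1.00, 0.94 and 1.07, against 0.082, 0.092 and 0.11 over all probes. Of all probes, 30.6%, 28.5% and 31% were higher and 25.1%, 23.6% and 24.5% lower. Sco1, an assembly factor of cytochrome c oxidase, was higher by 1.53, 1.50 and 1.62 (adjusted p of 3.59e-11 or less in limma). The copper chaperone gene Atox1 was higher by 1.47, 1.38 and 1.46, and the exporter gene Atp7a by 1.20, 1.06 and 1.13. Its paralog Atp7b was the exception and was lower by 0.94, 1.18 and 1.11.

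Of 8 glucocorticoid-responsive genes, 2 were higher and 6 lower in oocytes after each ED, with a median difference of -0.80, -0.96 and -0.68, against the same shares and medians of all probes. Dusp1, a phosphatase gene of the immediate early response, averaged 7.43 in oocytes and 9.84 in prospermatogonia after BPA, a difference of -2.41, and differed by -2.35 and -2.13 after DEHP and VZ (adjusted p of 8.92e-13 or less in limma). The clock gene Per1 differed by -1.40, -1.57 and -1.52, Zbtb16, a transcription factor gene, by -1.38, -1.31 and -1.40, and the kinase gene Sgk1 by -0.98, -1.11 and -0.84.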
